A study of Homo sapiens with 6 samples.

Results

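The comparison described here set cells with a hairpin against IMPDH2 directly against cells with a hairpin against IMPA1, over all genes. It used the 4 libraries labelled shIMPDH2 (2) or shIMPA1 (2), chosen by their treatment label, of the 6 libraries in the study. The remaining 2 libraries, from cells with a hairpin against luciferase (shLuc), which is not a human gene, served only to show on which side of the control each gene lay, and shared in the estimate of the spread. All groups were 22RV1, an established human prostate cancer line, stably expressing 1 of the 3 hairpins and grown in serum-containing RPMI-1640 with no further treatment. Poly(A) RNA was sequenced. Because nothing in the labels tells whether a pair of libraries had separate cultures or separate hairpin sequences behind it, a p-value here reflects only how far these libraries differ from each other, and that spread may be technical. Effects of the hairpin, of the cells that carry it and of the lowered target cannot be told apart in this design.

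IMPA1 encodes inositol monophosphatase 1, which removes the last phosphate from inositol monophosphates and so returns free inositol to the cell for phosphoinositide synthesis. It is one of the enzymes inhibited by lithium. IMPDH2 encodes the isoform of inosine monophosphate dehydrogenase that is prominent in proliferating cells and catalyses the committed step from inosine monophosphate towards guanine nucleotides, the precursors of GTP for RNA, DNA and signalling. The direct comparison asks which transcripts differ between cells with one or the other of these metabolic enzymes lowered.

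Values are read counts normalized by 1 size factor per library, given for replicate 1 and then replicate 2 of a group. A log2 difference is the shIMPDH2 level minus the shIMPA1 level on the log2(value + 1) scale, so that a positive value means a higher level in shIMPDH2. A gene was called where its adjusted p from limma, a linear model fitted to all genes together, was under 0.05, and "rose" and "fell" are used of shIMPDH2 relative to shIMPA1 for called genes only. Libraries held 20828900 and 22442454 reads in shIMPDH2, 26215122 and 27601249 in shIMPA1, and 27405563 and 27773294 in shLuc. The shIMPA1 libraries differed more than 2-fold from each other in 934 genes and the shIMPDH2 libraries in 398. Markers of luminal prostate cells were present in every library (10 of 10 tested), whereas the 3 endothelial and 4 blood cell markers were not among the listed genes.

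Libraries were set apart by a few keratin genes in a way that did not follow the labels. KRT5, a keratin of basal epithelial cells, stood at 0.9 and 1.75 in shLuc, at 0 and 88.9 in shIMPA1 and at 79.7 and 84.4 in shIMPDH2. KRT14, its partner keratin, stood at 0 and 0.875 in shLuc, at 1.8 and 54.4 in shIMPA1 and at 55.5 and 37.1 in shIMPDH2. The library shIMPA1 replicate 2 thus lay with both shIMPDH2 libraries, and shIMPA1 replicate 1 with shLuc. Across all genes, 5 were more than 4-fold higher in these 3 libraries than in the other 3 (KRT5, KRT14, KRT6A, KRT81 and the surfactant gene SFTPA2, chosen after their values were seen) and 0 were more than 4-fold lower. None of the 5 was called between the knockdowns (limma adjusted p = 0.118 to 0.286). Of the 3 basal markers 2 were tested (TP63 was not among the listed genes), and their summed level was 1.80 and 143 in shIMPA1, 135 and 122 in shIMPDH2, and 0.9 and 2.63 in shLuc. Without shIMPA1 replicate 2 both were called higher in shIMPDH2. The part of this pattern in the results below was not tested. Each gene list below is also given without any 1 library whose absence moved its count of calls or its median by over 1.5 times.

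Each targeted transcript was lower in the cells with its own hairpin. IMPA1 (ENSG00000133731, GRCh38 chromosome 8, 81657961 to 81686693, minus strand) stood at 957 and 1101 in shIMPA1, 1795 and 1842 in shIMPDH2 and 1621 and 1331 in shLuc. IMPDH2 (ENSG00000178035, GRCh38 chromosome 3, 49024325 to 49029408, minus strand) stood at 4435 and 5055 in shIMPA1, 2932 and 3166 in shIMPDH2 and 4270 and 5032 in shLuc. For both genes the libraries of the knockdown lay below all 4 others. The log2 difference was 0.82 for IMPA1 (SE 0.13, limma adjusted p = 0.00148) and -0.64 for IMPDH2 (SE 0.13, limma adjusted p = 0.00539), a 1.77-fold higher and a 1.55-fold lower level in shIMPDH2. Against shLuc, IMPA1 differed by -0.52 in shIMPA1 and by 0.31 in shIMPDH2, where it was not called (limma adjusted p = 0.14). IMPDH2 differed from shLuc by -0.61 in shIMPDH2 and by 0.03 in shIMPA1. The IMPDH2 call was not kept without shIMPDH2 replicate 1 (log2 difference -0.58, limma adjusted p = 0.0743).

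The 2 knockdowns differed widely. Of 17742 genes tested, 4627 were called (26.1%), 2395 of them higher (13.5%) and 2232 lower (12.6%) in shIMPDH2. Over all genes the median log2 difference was -0.004 and the median size of the difference was 0.32, against 0.76 among called genes. More than 2-fold differences were called for 659 genes that rose and 842 that fell, and more than 4-fold differences for 98 and 183. At more than 16-fold there were 7 rises and 22 falls, although the 2 largest fitted differences of all, in GJD2 and ACTN2, were rises. Protein-coding genes were called more often (28.9% of 14084) than genes of other annotated types (15.4% of 3597), in groups that were not matched for expression level. Among the autosomes and X the share called ran from 21.4% on chromosome 16 to 32.3% on chromosome 18. It was 17.65% for the 34 tested genes of the mitochondrial chromosome. The libraries of the 2 knockdowns did not overlap in 11341 genes (63.9%), against the 26.1% that were called. The count of calls rested on the libraries: it was 7052 without shIMPA1 replicate 1, 1875 without shIMPDH2 replicate 1 and 1430 without shIMPDH2 replicate 2.

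**Figure D1:**
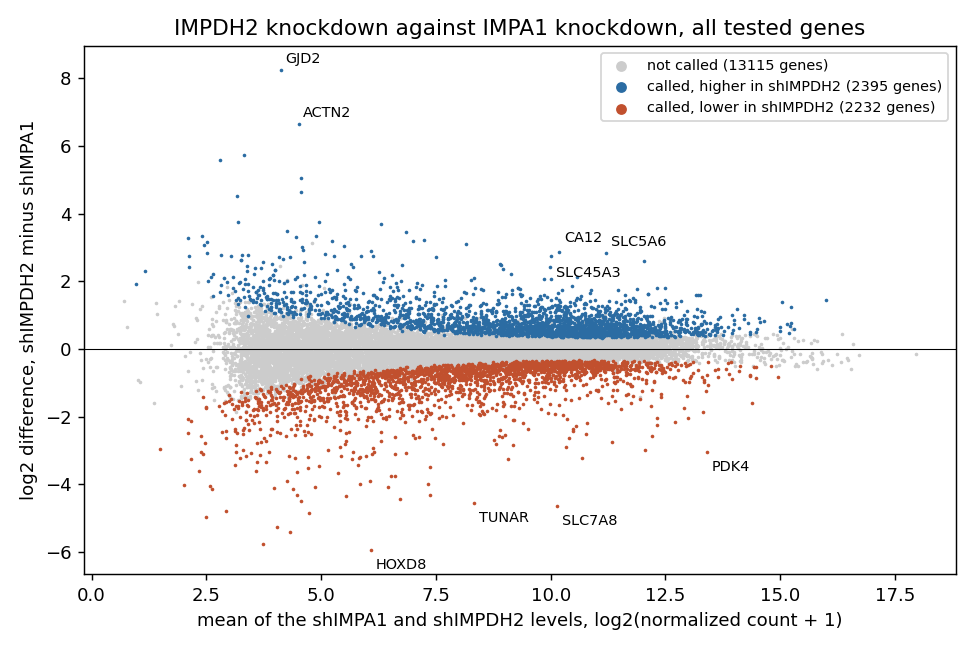
Each point is 1 of the 17742 tested genes, with the mean level of the knockdown libraries on the log2 scale (horizontal) and the log2 difference of shIMPDH2 minus shIMPA1 (vertical). Blue points are the 2395 genes called higher and orange points the 2232 called lower in shIMPDH2. Beyond 16-fold, a log2 difference of 4, lie 7 rises and 22 falls.

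Most called genes had the control nearer to shIMPDH2. The shLuc mean lay between both knockdown means for 2684 called genes (58.0%, against 33.9% of all genes), above both for 1102 and below both for 840. GJD2, with no read in shLuc or shIMPA1, was tied. Calling genes favours a wide gap between the knockdowns (median size of the log2 difference 0.76, against 0.32 over all genes). A wider gap takes in the shLuc mean more often by construction. The excess of 58.0% over 33.9% may therefore follow from the choice of genes, and no conclusion is drawn from it. Where shLuc lay above both, 803 genes were higher in shIMPDH2 and 299 lower, and where it lay below both, 272 were higher and 568 lower. Measured by distance on the log2 scale, shLuc was nearer to shIMPDH2 for 2980 called genes (64.4%) and nearer to shIMPA1 for 1647 (35.6%). This split by distance was not worked out over all tested genes, so whether it is particular to called genes is not known. Against shLuc, 30.2% of genes were called in shIMPA1 and 17.0% in shIMPDH2. These comparisons share the shLuc libraries.

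The largest rise was in GJD2, the gap junction protein connexin 36 of neurons and pancreatic beta cells (ENSG00000159248, GRCh38 chromosome 15, 34751032 to 34754965). It stood at 293 and 313 in shIMPDH2 and had 0 reads in all 4 other libraries. Against a floor of 3 reads over the group, its level in shIMPDH2 was at least 229.7-fold higher (limma adjusted p = 2.46e-06). ACTN2, the alpha-actinin of muscle Z-discs, stood at 48.6 and 33.3 in shLuc, at 1.8 and 0.863 in shIMPA1 and at 217 and 237 in shIMPDH2. With 3 reads in shIMPA1 and 399 in shIMPDH2, the ratio was 172 (95% counting interval 58.5 to 839). It thus lay on opposite sides of the control in the 2 knockdowns, while GJD2 was detected in shIMPDH2 only.

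Several other large rises were transcripts far below the control in shIMPA1. HGF, which encodes hepatocyte growth factor, stood at 135 and 124 in shLuc, at 3.59 and 2.59 in shIMPA1 and at 124 and 146 in shIMPDH2 (log2 difference 5.06, SE 0.27, limma adjusted p = 9.35e-07). The shLuc and shIMPDH2 libraries of HGF overlapped and both shIMPA1 libraries lay far below. The orphan monocarboxylate transporter gene SLC16A14 stood at 289.8 and 296 in shLuc, at 1.8 and 6.9 in shIMPA1 and at 105 and 128 in shIMPDH2 (log2 difference 4.64). HNMT, the histamine-inactivating methyltransferase, had a log2 difference of 3.74, the long non-coding host gene MIR99AHG one of 3.18 and the doublecortin-domain gene DCDC2 one of 3.34. For DCDC2 the control lay between the knockdowns, at 38.7 and 34.1 against 15.3 and 4.31 in shIMPA1 and 85.5 and 101 in shIMPDH2. The long non-coding transcript PSLNR had 3.03, but its shIMPA1 libraries stood at 45.8 and 4.31, and its call was lost without shIMPDH2 replicate 1 (limma adjusted p = 0.0662) or replicate 2 (0.0964). Neuronal membrane glycoprotein GPM6A stood at 475 and 526 in shLuc, at 127 and 74.2 in shIMPA1 and at 836 and 835 in shIMPDH2 (log2 difference 3.09). It was called against shLuc in both knockdowns, lower in shIMPA1 (-2.35) and higher in shIMPDH2 (0.74).

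Other rises came from higher levels in shIMPDH2 than in both other groups. CA12, a membrane carbonic anhydrase that acidifies the cell surroundings (GRCh38 chromosome 15, 63321378 to 63382161), stood at 494 and 541 in shLuc, at 437 and 428 in shIMPA1 and at 3158 and 3103 in shIMPDH2, a 7.22-fold rise (log2 difference 2.85, SE 0.12, limma adjusted p = 4.18e-07). SLC5A6, the sodium-dependent transporter of biotin and pantothenate (GRCh38 chromosome 2, 27199587 to 27212958), stood at 689 and 775 in shLuc, at 923 and 849 in shIMPA1 and at 6356 and 6333 in shIMPDH2, a 7.16-fold rise (log2 difference 2.84, limma adjusted p = 4.18e-07). TRABD2B, a metalloprotease that cleaves Wnt proteins, stood at 6.3 and 7.88 in shLuc, at 18.8 and 23.3 in shIMPA1 and at 304 and 267 in shIMPDH2. For these 3 genes both shIMPDH2 libraries lay above every other library. For CA12 and TRABD2B, lying above both shIMPA1 libraries was a condition of their choice. TRABD2B was also called higher in shIMPA1 than in shLuc (log2 difference from shLuc 1.45).

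The falls were mostly transcripts that were high in shIMPA1 and low in both other groups. SLC7A8, the neutral amino acid transporter LAT2 (GRCh38 chromosome 14, 23125295 to 23183674), stood at 6400 and 5001 in shIMPA1 against 240.3 and 210.3 in shIMPDH2 and 191 and 214 in shLuc, a 25.1-fold lower level in shIMPDH2 (log2 difference -4.65, SE 0.15, limma adjusted p = 8.28e-08). TUNAR, known from neural differentiation (GRCh38 chromosome 14, 95876392 to 95925571), stood at 1626 and 1494 in shIMPA1, at 77.4 and 55.1 in shIMPDH2 and at 12.6 and 12.3 in shLuc (log2 difference -4.56, limma adjusted p = 4.48e-07). In TUNAR both knockdowns lay above the control, shIMPA1 far more so. CACNA1H, a T-type calcium channel, had a log2 difference of -4.43. LAMP3, a lysosome-associated protein of dendritic cells, had -4.08, and the neutrophil protease gene ELANE had -4.33. The fatty acid hydroxylase CYP4F8 had -4.34, the nuclear factor C2CD4A -4.31, the chemerin receptor CMKLR2 -4.85 and ANKRD33 -4.01. For all 7 genes both shIMPA1 libraries also lay above both shLuc libraries, as the plot of the largest differences by library shows. Lying above both shIMPDH2 libraries was a condition of their choice.

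Genes with very few reads in shIMPDH2 are better given as ratios. DPP4, the membrane dipeptidase CD26, stood at 95.1 and 101 in shIMPA1 and 0 and 2.25 in shIMPDH2, from 223 and 2 reads, a ratio of 86.1 (95% counting interval 23.5 to 715). C14orf132 had 232 and 3 reads, a ratio of 59.7 (20.2 to 292). HOXD8, a homeobox transcription factor of the posterior body axis (GRCh38 chromosome 2, 176129694 to 176132695), stood at 516 and 560.0 in shIMPA1, 10.4 and 5.62 in shIMPDH2 and 34.2 and 20.1 in shLuc (log2 difference -5.95, SE 0.33, limma adjusted p = 1.23e-06). Its neighbour HOXD9 stood at 112 and 128 in shIMPA1, at 8.09 and 4.5 in shIMPDH2 and at 9.9 and 12.3 in shLuc (log2 difference -4.09). Both overlap the antisense gene HOXD-AS2, whose log2 difference was -4.11, and reads of overlapping genes may not be separable because strand use in counting is not given in the sources used here.

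**Figure D2:**
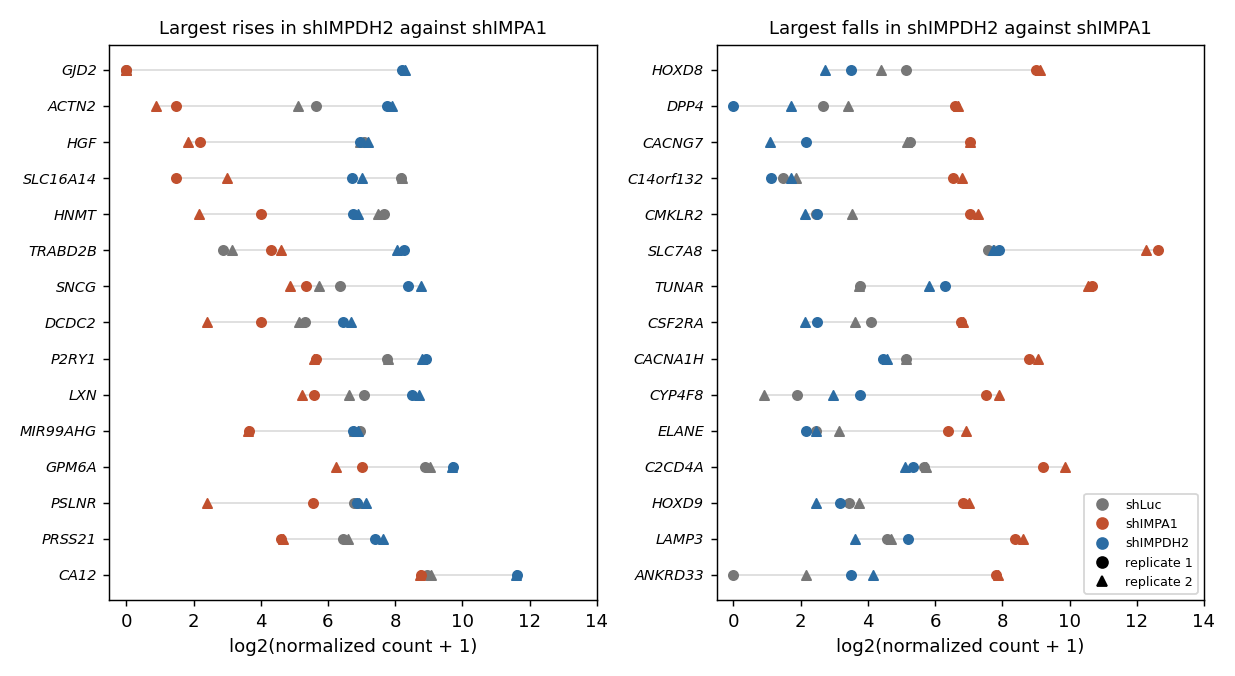
Level of the 15 genes with the largest rises (left) and the 15 with the largest falls (right) in each library, on the log2(normalized count + 1) scale, with groups in colour and replicates by marker shape. In the right panel the orange shIMPA1 points stand alone at the high end, while in the left panel grey shLuc points fall on either side or among the blue shIMPDH2 points. That the knockdowns do not overlap was a condition of the choice of genes.

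A smaller set of genes moved away from the control in both knockdowns and in opposite directions. Among the called genes, 130 (2.81%) were called against shLuc in each knockdown with opposite signs, 59 up in shIMPDH2 and down in shIMPA1 and 71 the reverse. A call between the knockdowns was part of this definition, and the 130 are out of 17742 genes tested. Genes called against shLuc in each knockdown with the same sign are not counted here. The contrasts share the shLuc libraries, and the count was 19 without shLuc replicate 1, 15 without shLuc replicate 2, 455 without shIMPA1 replicate 1, 380 without shIMPA1 replicate 2, 46 without shIMPDH2 replicate 1 and 29 without shIMPDH2 replicate 2. PDK4, the kinase that shuts off pyruvate dehydrogenase (GRCh38 chromosome 7, 95583499 to 95596491), was the most abundant of those named. It stood at 11636 and 13495 in shLuc, at 28779 and 33455 in shIMPA1 and at 3816 and 3683 in shIMPDH2, an 8.27-fold lower level in shIMPDH2 than in shIMPA1 (log2 difference -3.05, SE 0.14, limma adjusted p = 4.48e-07). All 3 groups of PDK4 were separate, with the control in the middle.

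On the side up in shIMPDH2 and down in shIMPA1 were the purinergic receptor P2RY1 (log2 difference between the knockdowns 3.23), the synuclein SNCG (3.47), the carboxypeptidase inhibitor LXN (3.20), the serine protease PRSS21 (2.89), the glucose transporter family member SLC2A10 (2.74), the T cell receptor constant segment TRGC1 (2.49) and the fatty acid desaturase FADS2 (2.06). P2RY1 stood at 216 and 221 in shLuc, at 49.4 and 47.5 in shIMPA1 and at 482 and 444 in shIMPDH2. TRGC1 stood at 539 and 622 in shLuc, at 154 and 264 in shIMPA1 and at 1148 and 1131 in shIMPDH2, and in both genes the 3 groups did not overlap. SNCG overlaps MMRN2, LXN overlaps GFM1, and FADS2 overlaps FADS1 and FEN1, whose log2 differences were 1.56, 0.02, 0.30 and 0.88. On the reverse side were the calcium channel subunit CACNG7 (-5.42), the cytokine receptor chain CSF2RA (-4.49), the semaphorin receptor NRP2 (-3.26), the homeobox gene LHX5 (-3.09) and the stress ligand ULBP1 (-2.73), besides HOXD8, DPP4 and PDK4. LHX5 stood at 131 and 144 in shLuc, at 276 and 409.8 in shIMPA1 and at 41.6 and 36 in shIMPDH2.

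Gene lists were described by their counts of calls beside the 13.5% and 12.6% of all genes called higher and lower, with no test of a list. Genes of DNA replication had the highest share of rises among lists of 5 or more tested genes. Of 40 tested genes for entry into S phase and DNA replication, 32 rose and 0 fell, with a median log2 difference of 0.86 (median difference from shLuc -1.23 in shIMPA1 and -0.31 in shIMPDH2). CDC6, which loads the replicative helicase, stood at 2548 and 2745 in shLuc, at 1118 and 748 in shIMPA1 and at 2464 and 2512 in shIMPDH2 (log2 difference 1.44, SE 0.17, limma adjusted p = 0.000182). The sliding clamp gene PCNA stood at 10758 and 11346 in shLuc, at 4640 and 2977 in shIMPA1 and at 9145 and 9983 in shIMPDH2 (log2 difference 1.36, limma adjusted p = 0.000436). The helicase subunits MCM4 and MCM6 had log2 differences of 1.37 and 1.21. In these 4 genes both shIMPA1 libraries lay below all others, and none was called between shIMPDH2 and shLuc. The list's median was 1.31 without shIMPA1 replicate 1 and 0.47 without replicate 2, and the number called was 15 without shIMPDH2 replicate 1 and 10 without replicate 2.

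The mitotic genes that were called also rose, with a wide gap between the shIMPA1 libraries. Of 40 tested genes of G2 and mitosis, 17 rose and 0 fell (median log2 difference 0.77). Their summed normalized count was 89940 and 40010 in shIMPA1 and 105300 and 109600 in shIMPDH2, so that shIMPA1 replicate 2 stood far below replicate 1. The actin-binding cytokinesis protein gene ANLN stood at 6022 and 6179 in shLuc, at 3253 and 1263 in shIMPA1 and at 6992 and 6960 in shIMPDH2 (log2 difference 1.78, limma adjusted p = 0.00222). KIF11, the spindle motor Eg5, stood at 2834 and 3304 in shLuc, at 1522 and 764 in shIMPA1 and at 2874 and 2654 in shIMPDH2 (log2 difference 1.36, limma adjusted p = 0.00267). Cyclin A2 (CCNA2, 1.28) and the spindle protein DLGAP5 (1.51) also rose, though both calls were lost without shIMPDH2 replicate 2 (limma adjusted p = 0.0580 and 0.0585). The list's median fell to 0.20 without shIMPA1 replicate 2 and was 1.35 without replicate 1. Its number of calls was 39 without shIMPA1 replicate 1, 13 higher and 2 lower without shIMPA1 replicate 2, 5 without shIMPDH2 replicate 1, 2 without shIMPDH2 replicate 2 and 10 without either shLuc library. In bulk RNA, fewer cycling cells and less of each transcript per cell cannot be told apart.

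Promoters of both lists are shown because they hold the short elements known from cell cycle genes more often than other promoters of the same length. Here and below, lists hold genes grouped by known function. The share of a list's promoters with an element thus describes the list, not the difference between the knockdowns. RefSeq promoters (GRCh38.p14, the 250 bases before the start) were matched for 12302 tested genes. E2F elements were searched as TTTGGCGC, TTTCCCGC, TTTCGCGC or TTTGCCGC on both strands, and 14 of 34 G1/S promoters held one (41.2%, against 4.37% of all). The CHR element, searched as TTTGAA on both strands, was in 19 of 34 promoters of G2 and mitosis genes (55.9%, against 8.41%), and CCAAT in 26 of 34 (76.5%, against 34.9%). Among genes called higher in shIMPDH2, 5.4% had an E2F element, and among those called lower 2.66%, beside the 4.37% of all. For the CHR element these shares were 9.91% and 7.3%, and for CCAAT 41.5% and 31.2%. A match is a run of letters, not a measured binding site. The lines below give 90 bases of 4 promoters 5′ to 3′ on the gene's strand, with E2F (MCM6, PCNA) or CHR (KIF11, PRC1) matches on either strand in capitals, overlapping in MCM6. They lie at chr2:135876514-135876603 (MCM6, minus strand), chr20:5126633-5126722 (PCNA, minus), chr10:92593040-92593129 (KIF11, plus) and chr15:90994536-90994625 (PRC1, a spindle midzone protein chosen for its element, minus; log2 difference 0.63, limma adjusted p = 0.0683).
MCM6: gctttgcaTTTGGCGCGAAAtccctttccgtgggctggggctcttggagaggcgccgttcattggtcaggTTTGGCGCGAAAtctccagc
PCNA: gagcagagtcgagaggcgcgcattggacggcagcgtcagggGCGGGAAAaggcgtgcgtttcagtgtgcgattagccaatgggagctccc
KIF11: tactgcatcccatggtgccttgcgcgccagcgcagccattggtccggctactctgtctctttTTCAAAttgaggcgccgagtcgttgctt
PRC1: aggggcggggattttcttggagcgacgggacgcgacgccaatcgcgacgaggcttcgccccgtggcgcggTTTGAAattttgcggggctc

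Repair and deoxynucleotide genes showed rises and no falls. Of 26 tested genes of homologous recombination and Fanconi repair, 15 rose and 0 fell (median log2 difference 0.73), among them BARD1, the partner of BRCA1, which stood at 414 and 419 in shLuc, at 210.0 and 135 in shIMPA1 and at 446 and 361 in shIMPDH2 (log2 difference 1.25, limma adjusted p = 0.0015). This list's median was 0.27 without shIMPA1 replicate 2 and 1.15 without replicate 1, and its calls were 25 without shIMPA1 replicate 1, 3 without shIMPDH2 replicate 1 and 2 without shIMPDH2 replicate 2. Of 18 tested genes of pyrimidine and deoxynucleotide supply, 10 rose and 0 fell (median 0.52, and 0.33 without shIMPA1 replicate 2). The ribonucleotide reductase subunits RRM1 and RRM2B, the latter p53-induced, had log2 differences of 1.33 and 1.09, and RRM2 had 1.37, a call lost without shIMPDH2 replicate 2 (limma adjusted p = 0.0524). Of these 18, 3 were called without shIMPDH2 replicate 1 and 2 without replicate 2, and 1 fall was called without shIMPA1 replicate 1.

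For replication-dependent histone genes the control lay near shIMPA1 in summed level. Of 26 tested, 12 rose and 0 fell (median log2 difference 0.82), and the median difference from shLuc was -0.39 in shIMPA1 and 0.53 in shIMPDH2. Their summed normalized count was 2442 and 2454 in shLuc, close to the 2356 and 2881 in shIMPA1, and 4833 and 4952 in shIMPDH2. H2AC6, an H2A gene, stood at 203 and 193 in shLuc, at 232 and 387 in shIMPA1 and at 855 and 892 in shIMPDH2 (log2 difference 1.54, SE 0.21, limma adjusted p = 0.000445). The linker histone gene H1-2 stood at 203 and 235 in shLuc, at 233 and 257 in shIMPA1 and at 488 and 539 in shIMPDH2 (log2 difference 1.06, limma adjusted p = 0.00065). Both shIMPDH2 libraries lay above all 4 others in both genes. These transcripts normally end in a stem-loop rather than a poly(A) tail, so poly(A) selection counts only their polyadenylated part, and reads of near-identical histone copies are uncertain. Without shIMPDH2 replicate 1, 5 members were called, and without replicate 2, 2 members.

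**Figure D3:**
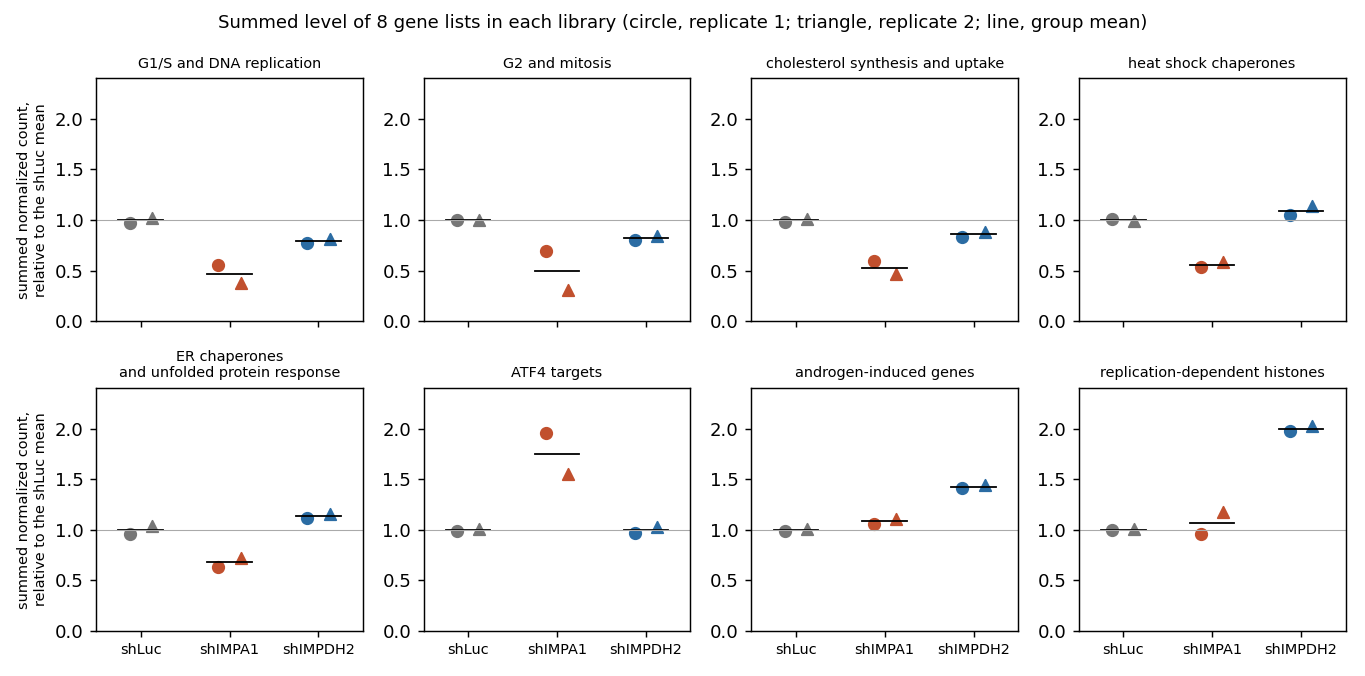
Summed normalized count of 8 gene lists in each library, divided by the mean of the shLuc libraries (vertical), with circles for replicate 1, triangles for replicate 2 and a line at each group's mean. For G2 and mitosis the shIMPA1 libraries stand at 0.69 and 0.307 of shLuc, for ATF4 targets at 1.95 and 1.55, while the shIMPDH2 libraries stand near 2 only for the histones (1.97 and 2.02).

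The opposite pattern was seen in targets of ATF4, the transcription factor that is translated when amino acids are scarce or eIF2 alpha is phosphorylated. Of 33 tested targets, 23 fell and 1 rose, with a median log2 difference of -0.87 (median difference from shLuc 0.73 in shIMPA1 and -0.05 in shIMPDH2). GDF15, a secreted stress cytokine, stood at 932 and 949 in shLuc, at 10947 and 12117 in shIMPA1 and at 1778 and 2084 in shIMPDH2 (log2 difference -2.58, SE 0.12, limma adjusted p = 6.19e-07). DDIT3, which encodes the pro-death factor CHOP, stood at 1844 and 1580 in shLuc, at 11467 and 9360 in shIMPA1 and at 2317 and 2732 in shIMPDH2 (log2 difference -2.04, limma adjusted p = 7.48e-06). Both genes were also called higher in shIMPDH2 than in shLuc (differences from shLuc 1.03 and 0.56), far less than in shIMPA1 (3.61 and 2.60).

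The pseudokinase TRIB3 stood at 5309 and 5540 in shLuc, at 17630 and 15344 in shIMPA1 and at 3908 and 4144 in shIMPDH2 (log2 difference -2.03), and the sestrin SESN2 had a log2 difference of -1.37. TRIB3 was called lower in shIMPDH2 than in shLuc (-0.43, limma adjusted p = 0.038). The transcript of ATF4 itself, named outside the rule for its role, stood at 20190 and 18550 in shLuc, at 29577 and 31511 in shIMPA1 and at 15866 and 17974 in shIMPDH2 (log2 difference -0.85, limma adjusted p = 0.00172). The single riser, chosen after its values were seen, was the serine synthesis phosphatase PSPH (1434 and 1491 in shLuc, at 2354 and 1378 in shIMPA1 and at 5450 and 5432 in shIMPDH2, log2 difference 1.59). GDF15, SESN2 and SLC3A2 also stand on other lists used here. DDIT3 overlaps MARS1 on the opposite strand, and both fell. The list's median was -0.73 without shIMPA1 replicate 1 and -1.13 without replicate 2, with 16 to 28 falls called when any 1 library was left out and 3 rises without shIMPA1 replicate 1. The amino acid response element, searched as TGATGCAA on both strands, was in 1 of 28 promoters of the list (3.57%, against 0.382% of all), that of the glutathione-degrading enzyme CHAC1 (chosen for its element, chr15:40953221-40953310, plus strand; log2 difference -1.30, limma adjusted p = 0.00112), shown with the match in capitals.
CHAC1: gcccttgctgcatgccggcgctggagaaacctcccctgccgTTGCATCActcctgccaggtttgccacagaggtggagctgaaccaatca

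Amino acid transporters, some of which are also on the ATF4 list, were called lower more often than higher. Of 23 tested plasma membrane amino acid transporters, 11 fell and 3 rose (median log2 difference -0.49). Besides SLC7A8, the cationic amino acid transporter SLC7A2 stood at 1544 and 1681 in shLuc, at 3064 and 3643 in shIMPA1 and at 609 and 628 in shIMPDH2 (log2 difference -2.43, limma adjusted p = 9.35e-07), with the control between the 2 knockdowns. SLC3A2, the heavy chain shared by several of these transporters, stood at 4439 and 4444 in shLuc, at 17781 and 11242 in shIMPA1 and at 4049 and 4375 in shIMPDH2 (log2 difference -1.75). The lysosomal and surface proton-coupled transporter SLC36A1 rose (1.26). Falls numbered 7 without shIMPDH2 replicate 1 and 6 without replicate 2, with 1 rise in each case. Of 20 cytosolic aminoacyl-tRNA synthetases, 7 fell and 3 rose, with a median of -0.02 that was -0.16 without shIMPA1 replicate 2, -0.07 without shIMPDH2 replicate 2, -0.03 without shIMPA1 replicate 1 and 0.04 without shIMPDH2 replicate 1. The synthetases WARS1, SARS1 and MARS1 fell (log2 differences -0.89, -0.86 and -0.82) while KARS1 rose (0.71). Falls in this list numbered 3 without shIMPDH2 replicate 1 and 4 without replicate 2, and rises 5 without shIMPA1 replicate 2.

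Among chaperones of the endoplasmic reticulum and of the cytosol, rises outnumbered falls. Of 25 tested chaperones of the endoplasmic reticulum and genes of the unfolded protein response, 14 rose and 2 fell (median log2 difference 0.47, median difference from shLuc -0.15 in shIMPA1 and 0.30 in shIMPDH2). MANF, a secreted factor retained in the endoplasmic reticulum, stood at 4228 and 4788 in shLuc, at 1454 and 1635 in shIMPA1 and at 5060 and 5266 in shIMPDH2 (log2 difference 1.74, SE 0.12, limma adjusted p = 7.48e-06). The protein disulfide isomerase PDIA4 stood at 15504 and 13962 in shLuc, at 6601 and 6810 in shIMPA1 and at 14224 and 14853 in shIMPDH2 (log2 difference 1.12), and SDF2L1, a partner of the chaperone BiP, had 1.20. The 2 falls were in stress sensors rather than chaperones: ERN1, which encodes IRE1 alpha, stood at 325 and 350.0 in shLuc, at 993 and 1024 in shIMPA1 and at 351 and 272 in shIMPDH2 (log2 difference -1.70, limma adjusted p = 3.21e-05), and ATF6, chosen after its values were seen, had -0.74 (limma adjusted p = 0.00289). Rises numbered 8 without shIMPDH2 replicate 2, and falls 6 without shIMPA1 replicate 1.

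The endoplasmic reticulum stress element, CCAAT and CCACG spaced by 9 bases (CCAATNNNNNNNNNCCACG, both strands, and overlapping the CCAAT box by design), was in 6 of 24 promoters of this list (25%, against 0.114% of all promoters). The promoters of HSPA5, which encodes BiP (chr9:125241356-125241445, minus strand), and of the lectin chaperone CALR (chr19:12938359-12938448, plus strand) are shown with the match in capitals, both genes being chosen for their element. HSPA5 stood at 13782 and 16410 in shLuc, at 7688 and 11877 in shIMPA1 and at 18196 and 18753 in shIMPDH2 (log2 difference 0.95, limma adjusted p = 0.00472), and CALR had a log2 difference of 0.99 (limma adjusted p = 0.000746).
HSPA5: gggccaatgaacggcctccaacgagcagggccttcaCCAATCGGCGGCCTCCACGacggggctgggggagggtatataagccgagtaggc
CALR: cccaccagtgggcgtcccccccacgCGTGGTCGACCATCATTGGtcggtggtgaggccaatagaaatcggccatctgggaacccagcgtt

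Of 20 tested heat shock chaperones, 10 rose and 0 fell (median log2 difference 0.50). HSP90AA1, the inducible cytosolic HSP90, stood at 107400 and 92695 in shLuc, at 38522 and 40271 in shIMPA1 and at 103820 and 112930 in shIMPDH2 (log2 difference 1.46, SE 0.18, limma adjusted p = 0.000246). The constitutive HSP70 gene HSPA8 stood at 43600 and 41647 in shLuc, at 19422 and 22388 in shIMPA1 and at 52099 and 56447 in shIMPDH2 (log2 difference 1.38, limma adjusted p = 0.000157). The nucleotide exchange factor HSPH1 and the HSP90 co-chaperone CHORDC1 had log2 differences of 1.19 and 0.89. In all 4 genes both shIMPA1 libraries lay below the other 4 libraries. Rises numbered 17 without shIMPA1 replicate 2 and 6 without shIMPDH2 replicate 2. The heat shock element (GAANNTTCNNGAA or TTCNNGAANNTTC, both strands) was in 2 of 18 promoters of the list (11.1%, against 0.317% of all).

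Genes of cholesterol synthesis and uptake rose in most cases. Of 26 tested, 20 rose and 0 fell (median log2 difference 0.81, median difference from shLuc -1.10 in shIMPA1 and -0.16 in shIMPDH2). HMGCS1, which makes the precursor of mevalonate, stood at 11042 and 11718 in shLuc, at 3042 and 2149 in shIMPA1 and at 7683 and 7983 in shIMPDH2 (log2 difference 1.61, SE 0.16, limma adjusted p = 6.06e-05). It was called lower than shLuc in both knockdowns (-2.15 in shIMPA1 and -0.54 in shIMPDH2). The sterol dehydrogenase NSDHL stood at 623 and 759 in shLuc, at 299 and 293 in shIMPA1 and at 869 and 946 in shIMPDH2 (log2 difference 1.61), mevalonate kinase (MVK) had 1.23 and the sterol carrier STARD4 1.45. The number called was 12 without shIMPDH2 replicate 2. A sterol regulatory element (TCACCCCAC, TCACGCCAC or TCACCCCAT, both strands) was in 1 of 19 promoters of the list (5.26%, against 0.618% of all). Over all called genes it was in 0.577% of promoters of genes called higher in shIMPDH2 and 0.888% of those called lower.

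Fatty acid genes did not move one way. Of 19 tested, 7 rose and 3 fell (median log2 difference 0.23). ME1, the malic enzyme that supplies NADPH, stood at 88.2 and 73.5 in shLuc, at 18 and 16.4 in shIMPA1 and at 109.8 and 74.2 in shIMPDH2 (log2 difference 2.33, limma adjusted p = 0.00017). SCD, the stearoyl-CoA desaturase, stood at 13254 and 15569 in shLuc, at 42672 and 31922 in shIMPA1 and at 12844 and 11655 in shIMPDH2 (log2 difference -1.59, limma adjusted p = 0.000103). ACSL4, which activates arachidonic acid, stood at 497 and 506 in shLuc, at 446 and 405 in shIMPA1 and at 147 and 155 in shIMPDH2 (log2 difference -1.49, limma adjusted p = 4.99e-05). Thus ME1 was low and SCD high in shIMPA1 alone, whereas ACSL4 was low in shIMPDH2 alone. Rises numbered 4 without shIMPDH2 replicate 1, and the median was 0.08 without shIMPA1 replicate 2.

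Among prostate genes, several androgen-induced secretory and membrane products were higher in shIMPDH2. Of 31 tested androgen-induced genes, 14 rose and 4 fell (median log2 difference 0.46, from -1.66 to 2.73 over the list). Their summed normalized count was 95640 and 100100 in shIMPA1 and 127300 and 130100 in shIMPDH2. SLC45A3, the prostate protein prostein (GRCh38 chromosome 1, 205657851 to 205680459), stood at 592 and 568 in shLuc, at 407 and 390.0 in shIMPA1 and at 2574 and 2739 in shIMPDH2 (log2 difference 2.73, SE 0.12, limma adjusted p = 4.48e-07). The prostaglandin dehydrogenase HPGD stood at 3483 and 2937 in shLuc, at 2786 and 3449 in shIMPA1 and at 10240 and 11347 in shIMPDH2 (log2 difference 1.80), and FOLH1, prostate-specific membrane antigen, at 9172 and 9209 in shLuc, at 4870 and 5996 in shIMPA1 and at 15595 and 17107 in shIMPDH2 (log2 difference 1.60). In these 3 genes both shIMPDH2 libraries lay above all others. Without either shIMPDH2 library 6 rises were called, and falls numbered 8 without shIMPA1 replicate 1 and 2 without shIMPDH2 replicate 2.

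Of 14 tested luminal prostate factors, 4 rose and 1 fell (median log2 difference 0.11, and 0.06 without shIMPDH2 replicate 1), with 2 falls without shIMPA1 replicate 2. The luminal keratin gene KRT19 stood at 952 and 939.8 in shLuc, at 645 and 642 in shIMPA1 and at 1914 and 2118 in shIMPDH2 (log2 difference 1.64, limma adjusted p = 8.26e-06), and the ETS factor SPDEF at 944 and 997 in shLuc, at 1481 and 1537 in shIMPA1 and at 3967 and 4015 in shIMPDH2 (log2 difference 1.40, limma adjusted p = 1.85e-05). GATA2, a zinc finger transcription factor, fell (log2 difference -1.25). Of the 10 luminal markers 3 rose and 0 fell (median 0.21), including HOXB13 (0.93).

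Lineage and stem cell genes were divided. Of 19 tested neuroendocrine and neural markers, 4 rose and 5 fell, with a median log2 difference of -0.08 that was 0.17 without shIMPA1 replicate 1, -0.25 without shIMPA1 replicate 2, -0.14 without shIMPDH2 replicate 1 and -0.04 without shIMPDH2 replicate 2. CHGA, chromogranin A of secretory granules, stood at 540.0 and 596 in shLuc, at 1283 and 1128 in shIMPA1 and at 261 and 298 in shIMPDH2 (log2 difference -2.10, limma adjusted p = 4.23e-06), and the synaptic protein SNAP25 fell as well (-1.02). The synaptotagmin SYT4 rose (1.01), as did GJD2. In this list 7 rises were called without shIMPA1 replicate 1, 1 without either shIMPDH2 library, and 9 falls without shIMPA1 replicate 2. Of 20 stem and tumour-initiating cell markers, 6 rose and 3 fell (median 0.50). The pluripotency factor SOX2 stood at 18 and 19.3 in shLuc, at 51.2 and 39.7 in shIMPA1 and at 8.09 and 5.62 in shIMPDH2 (log2 difference -2.57, limma adjusted p = 0.000536), whereas SOX9 (1.45) and the R-spondin receptor LGR4 (1.21) rose. Rises among stem cell markers numbered 11 without shIMPA1 replicate 1 and 3 without shIMPDH2 replicate 2.

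Mesenchymal genes were called in both directions, and some were far below the control in both knockdowns. Of 13 tested, 4 rose and 2 fell, with a median log2 difference of 0.22 that was -0.11 without shIMPA1 replicate 2, -0.05 without shIMPDH2 replicate 1, 0.48 without shIMPA1 replicate 1 and 0.41 without shIMPDH2 replicate 2. The counts were 7 higher and 1 lower without shIMPA1 replicate 1 and 1 higher and 1 lower without either shIMPDH2 library, and 1 fall was called without either shLuc library. The matrix protein gene TNC stood at 257 and 297 in shLuc, at 52.1 and 38 in shIMPA1 and at 105 and 93.3 in shIMPDH2 (log2 difference 1.14, limma adjusted p = 0.00319). VIM, the intermediate filament vimentin, stood at 658 and 753 in shLuc, at 40.4 and 43.1 in shIMPA1 and at 61.2 and 70.9 in shIMPDH2 (log2 difference 0.65, limma adjusted p = 0.0249), a call lost without either shIMPDH2 library (0.0717 and 0.183) or either shLuc library (0.0701 and 0.0717). The caveolin gene CAV1 stood at 116.1 and 109 in shLuc, at 13.5 and 23.3 in shIMPA1 and at 34.7 and 37.1 in shIMPDH2 (log2 difference 0.98, limma adjusted p = 0.0317), and its call was kept in only 1 of the 6 fits that left out a library. Of the 6 caveola genes CAV1 alone was called, and of 4 tested stroma markers COL1A1 alone (-0.60), a call lost in 4 of 6 such fits. The caveola median was -0.10, with -0.21 without shIMPA1 replicate 1, -0.05 without shIMPA1 replicate 2 and 0.01 without shIMPDH2 replicate 2. The stroma median was 0.06, with -0.21 without shIMPA1 replicate 1, -0.17 without shIMPA1 replicate 2 and -0.05 without shIMPDH2 replicate 2. Without either shIMPA1 library 1 caveola gene was called lower and 1 stroma marker higher, and without replicate 2 of shIMPA1 2 stroma markers fell.

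In the pathways of the targeted enzymes the share called was 20% for inositol genes, 36.4% for phosphoinositide turnover, 50% for guanine nucleotide genes and 30% for de novo purine synthesis, beside 26.1% of all genes. The inositol and guanine shares include the hairpins' own targets, IMPA1 and IMPDH2. Of 20 tested genes of inositol synthesis, release and uptake, 4 rose, IMPA1 itself among them, and 0 fell (median log2 difference 0.15, and 0.08 without shIMPA1 replicate 2). IMPA2, the second inositol monophosphatase, stood at 1239 and 1167 in shLuc, at 644 and 524 in shIMPA1 and at 1049 and 1084 in shIMPDH2 (log2 difference 0.88, SE 0.13, limma adjusted p = 0.000997), so both monophosphatase transcripts were lower in shIMPA1. The uptake transporter SLC5A3 and the synthase ISYNA1 were not called (-0.03, limma adjusted p = 0.911, and 0.30, limma adjusted p = 0.255). Rises in this list numbered 2 without either shIMPDH2 library, and 1 fall was called without shIMPA1 replicate 1.

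Of 33 tested genes of phosphoinositide turnover, 9 rose and 3 fell, with a median log2 difference of 0.16 that was 0.03 without shIMPA1 replicate 1, 0.03 without shIMPDH2 replicate 1 and 0.10 without shIMPDH2 replicate 2. The inositol trisphosphate receptor ITPR1 stood at 30.6 and 31.5 in shLuc, at 99.6 and 133 in shIMPA1 and at 12.7 and 16.9 in shIMPDH2 (log2 difference -2.89, limma adjusted p = 5.9e-05), with the control between the knockdowns. The phospholipase C genes did not move together: PLCG1 (0.96) and PLCB4 (0.89) rose and PLCB1 (-0.84) fell. Rises numbered 3 without either shIMPDH2 library, and falls 7 without shIMPA1 replicate 1.

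Of 12 tested genes of guanine nucleotide synthesis and salvage, 5 rose and 1, IMPDH2 itself, fell (median log2 difference 0.33). HPRT1, which salvages guanine and hypoxanthine, stood at 3142 and 2953 in shLuc, at 1277 and 1127 in shIMPA1 and at 2313 and 2546 in shIMPDH2 (log2 difference 1.02, SE 0.12, limma adjusted p = 0.000222). Purine nucleoside phosphorylase (PNP) rose (0.55), a call lost without shIMPDH2 replicate 2 (limma adjusted p = 0.0970). The isozyme IMPDH1 was not called (0.29, limma adjusted p = 0.106). Of 10 genes of de novo purine synthesis, 3 rose and 0 fell (median 0.26): PRPS1, which makes the phosphoribosyl donor, with 0.94, the bifunctional enzyme PAICS with 0.76, and PRPS2 with 0.66, whose call was lost without either shIMPDH2 library (limma adjusted p = 0.0618 and 0.0961). Rises in the guanine list numbered 2 without shIMPDH2 replicate 1, where 0 falls were called, and 1 without replicate 2.

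Glycolysis genes were called higher more often than lower, and hypoxia targets lower more often than higher. Of 22 tested glycolysis genes, 7 rose and 2 fell (median log2 difference 0.28). Lactate dehydrogenase A (LDHA) stood at 12315 and 13357 in shLuc, at 6458 and 6250 in shIMPA1 and at 11951 and 13003 in shIMPDH2 (log2 difference 0.97, limma adjusted p = 0.000351), and hexokinase 1 (HK1) rose (0.71). The falls were PDK4 and PDK1, kinases that restrain pyruvate oxidation; the PDK1 call (-0.78) was lost without either shIMPDH2 library (limma adjusted p = 0.100 and 0.0524). Of 23 hypoxia targets, 8 fell and 3 rose (median -0.30, and -0.17 without shIMPDH2 replicate 1). VEGFA, the angiogenic growth factor, stood at 3193 and 2826 in shLuc, at 6141 and 7016 in shIMPA1 and at 2299 and 2388 in shIMPDH2 (log2 difference -1.49, limma adjusted p = 2.39e-05), and the repressor BHLHE40 at 28.8 and 35 in shLuc, at 254 and 373 in shIMPA1 and at 47.4 and 57.4 in shIMPDH2 (log2 difference -2.54), while CA12 of the same list rose. Falls among hypoxia targets numbered 4 without either shIMPDH2 library. Rises among them numbered 5 without shIMPA1 replicate 1 and 1 without any other single library. Rises among glycolysis genes numbered 3 without shIMPDH2 replicate 1, 2 without shIMPDH2 replicate 2 and 11 without shIMPA1 replicate 1, and 1 fall was called without either shIMPDH2 library.

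Respiratory chain genes differed by small amounts. Of 44 nuclear-encoded subunits, 9 rose and 0 fell (median log2 difference 0.26), led by the complex I subunits NDUFA9 (0.72) and NDUFV2 (0.66). Of 13 mitochondrially encoded transcripts, 3 rose and 0 fell (median 0.43), and 0 were called without either shIMPDH2 library, 1 without either shLuc library and 9 without shIMPA1 replicate 1. Without shIMPA1 replicate 2, 1 was called and the median was 0.20. The mitochondrial share of reads was 1.29% and 0.992% in shIMPA1 and 1.55% and 1.28% in shIMPDH2. Calls among nuclear subunits numbered 4 without shIMPDH2 replicate 1 and 2 without replicate 2, where the median was 0.17.

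**Figure D4:**
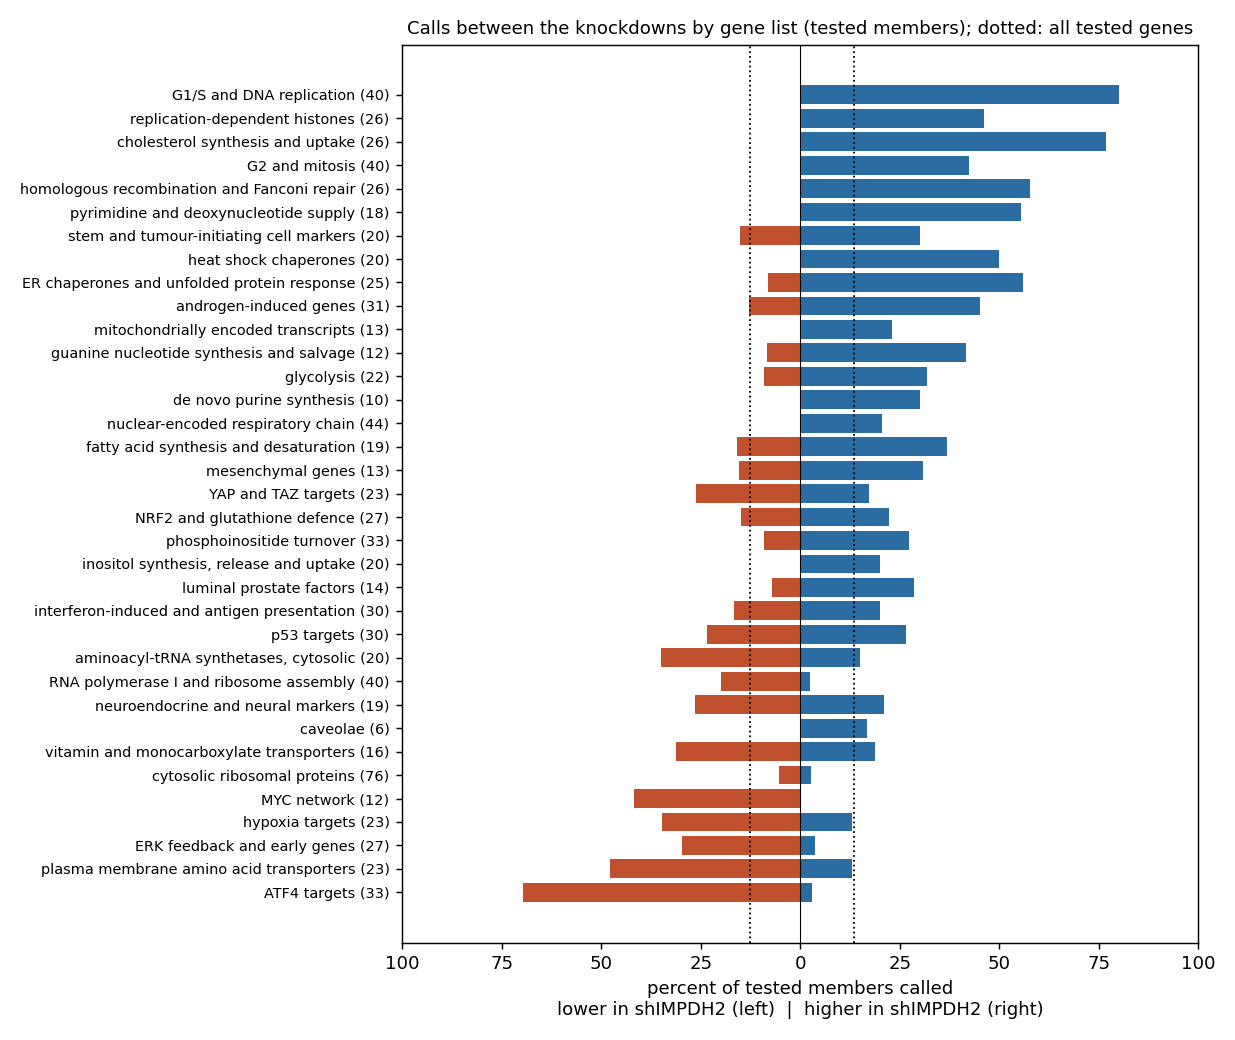
Percent of the tested members of each gene list (number in brackets) called lower (orange, to the left) or higher (blue, to the right) in shIMPDH2 than in shIMPA1, ordered by the median log2 difference, with dotted lines at the 12.6% and 13.5% of all tested genes. G1/S and cholesterol genes reach furthest to the right and ATF4 targets furthest to the left, while cytosolic ribosomal proteins stay inside both dotted lines.

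Ribosomal genes were near or under the background. Of 76 cytosolic ribosomal protein genes, 2 rose and 4 fell (median log2 difference -0.24), with 26 falls without shIMPA1 replicate 1, 1 without either shLuc library and 0 without shIMPA1 replicate 2 or either shIMPDH2 library. Rises numbered 1 without shIMPDH2 replicate 1 and 0 without replicate 2. The median was -0.39 without shIMPA1 replicate 1, -0.10 without shIMPA1 replicate 2 and -0.14 without shIMPDH2 replicate 1. Of 40 genes of RNA polymerase I and ribosome assembly, 8 fell and 1 rose (median -0.03, 0.001 without shIMPA1 replicate 2, and -0.02 without shIMPA1 replicate 1 or shIMPDH2 replicate 1), and 0 were called without either shIMPDH2 library. Rises in it numbered 7 without shIMPA1 replicate 1 and 2 without replicate 2, and falls 5 without either shLuc library. In the MYC network 5 of 12 genes fell and 0 rose (median -0.29). MYC, the growth-promoting transcription factor, stood at 4659 and 5206 in shLuc, at 6744 and 5322 in shIMPA1 and at 3157 and 3116 in shIMPDH2 (log2 difference -0.93, limma adjusted p = 0.000819), and MYCL had -1.91. In both MYC genes the shIMPDH2 libraries lay below all others. The number of falls in the MYC network was 2 without shIMPDH2 replicate 1 and 3 without replicate 2, and 1 rise was called without shIMPA1 replicate 1.

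Several ERK-induced genes were lower in shIMPDH2. Of 27 ERK feedback and early genes, 8 fell and 1 rose (median log2 difference -0.36, -0.185 without shIMPA1 replicate 1 and -0.57 without replicate 2). The ERK phosphatase gene DUSP4 stood at 806 and 829 in shLuc, at 2933 and 3613 in shIMPA1 and at 631 and 637 in shIMPDH2 (log2 difference -2.36, limma adjusted p = 1.23e-06), and the early genes IER3 (-2.57) and EGR3 (-1.95) fell too. Falls numbered 18 without shIMPA1 replicate 2 and 5 without shIMPDH2 replicate 2, and rises 5 without shIMPA1 replicate 1. Of 23 YAP and TAZ targets, 6 fell and 4 rose (median 0.21, 0.37 without shIMPA1 replicate 1, -0.10 without shIMPA1 replicate 2 and -0.11 without shIMPDH2 replicate 1). Rises in this list numbered 10 without shIMPA1 replicate 1 and 2 without either shIMPDH2 library, and falls 9 without shIMPA1 replicate 2. AMOTL2, an angiomotin, stood at 358 and 410.4 in shLuc, at 1683 and 1445 in shIMPA1 and at 223 and 211 in shIMPDH2 (log2 difference -2.84, limma adjusted p = 7.32e-07), while its relative AMOTL1 rose (1.44).

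Of 30 p53 targets, 7 fell and 8 rose (median log2 difference 0.03, and 0.08 and 0.05 without shIMPA1 replicate 1 and replicate 2). The growth arrest gene GADD45A stood at 712 and 747 in shLuc, at 2588 and 4166 in shIMPA1 and at 649 and 711 in shIMPDH2 (log2 difference -2.27, limma adjusted p = 2.31e-05), and the death receptor TNFRSF10B fell (-1.37), as did GDF15 and SESN2, which are also on the ATF4 list. These genes were named for the smallest adjusted p in the list, and all are falls. Over the list the log2 difference ran from -2.58 to 1.085. Rises numbered 4 without shIMPDH2 replicate 1, 2 without replicate 2 and 5 without either shLuc library.

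Of 30 interferon-induced and antigen presentation genes, 5 fell and 6 rose (median log2 difference 0.08, 0.25 without shIMPA1 replicate 1, -0.05 without shIMPA1 replicate 2 and 0.16 without shIMPDH2 replicate 1). HLA-E, a class I molecule recognised by natural killer cells (-0.89), the tetherin gene BST2 (-1.67) and the exonuclease ISG20 (-1.68) fell. Only falls are named here, and over the list the log2 difference ran from -2.11 to 1.156. Reads of HLA genes are uncertain, since class I genes are near copies of each other. Rises numbered 10 without shIMPA1 replicate 1, 2 without shIMPDH2 replicate 1, 0 without shIMPDH2 replicate 2 and 3 without either shLuc library, and falls 8 without shIMPA1 replicate 2.

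Of 27 NRF2 and glutathione defence genes, 6 rose and 4 fell (median log2 difference 0.18, and 0.12 without shIMPDH2 replicate 2). Without either shIMPDH2 library 1 rise and 0 falls were called, and without either shLuc library 2 falls. ME1, which is also on this list, had the smallest adjusted p of its members. Of 16 vitamin and monocarboxylate transporters, 3 rose and 5 fell (median -0.15, and -0.31 without shIMPA1 replicate 1). SLC5A8, which carries lactate and short fatty acids, stood at 14.4 and 15.8 in shLuc, at 422 and 285 in shIMPA1 and at 49.7 and 63 in shIMPDH2 (log2 difference -2.61, limma adjusted p = 5.71e-05), higher than the control in both knockdowns. The vitamin C transporter SLC23A2 fell (-1.07) and SLC5A6 rose. Falls among these transporters numbered 8 without shIMPA1 replicate 1 and 2 without either shIMPDH2 library.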

How the data were processed

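The submitters' processing notes name Trimmomatic 0.36 for trimming, STAR 2.5.2b with GRCh38, and Subread 1.5.2. Its featureCounts took unique reads within exons, per the labels' protocols. Neither library strandedness nor the annotation release is given in the sources used here. The deposited signal values are read counts that the authors divided by a size factor per library. Dividing by the value of 1 read gave whole reads (tolerance 0.05) for 99.98% to 100% of genes. The authors' deposited fold change and p-value columns, for a comparison the header does not name, were not used.

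Genes reaching a value of 10 in 2 or more libraries were kept (17742 of 17811, 69 removed). One limma fit (version 3.58.1, R 4.3.3) of log2(value + 1) with a mean-variance trend covered the 6 libraries, leaving 3 residual degrees of freedom. A gene was called at a Benjamini-Hochberg adjusted p under 0.05. On the recovered reads, edgeR 4.0.16 called 4551 genes. The log2(value + 1) scale understates changes of genes with few reads. Counting intervals and floors cover counting error only.

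Symbols came from a name table (16275 genes) or GENCODE release 29 (54), and 1482 genes had none. Coordinates are from GENCODE release 29 on GRCh38, and promoters from RefSeq on GRCh38.p14. Named genes were the targets, the 15 largest differences and the 8 largest opposite changes each way (called, with a symbol, at least 2 CPM on average, no overlap between the knockdowns) and up to 4 members of each of 41 gene lists with the smallest adjusted p. Members and lists were chosen with earlier results of these data known. Alternatives were other tools, scaling, filters, pseudocounts, the replicate block, fewer libraries and thinned reads. Some genes that met the rule are omitted from the text.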

Additional observations from a re-analysis of the deposited data

How the results depend on the processing

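Of 17742 genes, 4627 were called (2395 higher and 2232 lower in shIMPDH2, 2684 with shLuc between, 130 opposite). The counts stayed within 1.5 times with edgeR (4551), DESeq2 (3978), TMM scaling (4623), the 4 knockdown libraries alone (3422), pseudocounts of 0.5 (4606) and 10 (4680), no filter on low values (4627), a minimum value of 50 (4229), and reads thinned to the shallowest library (4412), an alternative chosen after seeing the data. Without a mean-variance trend 2909 genes were called, 1333 higher and 1576 lower, with 1787 having shLuc between and 65 opposite. Leaving out 1 library at a time, in fits where the lone library is assumed to vary like the other groups, gave 1430 to 7052 calls, 599 to 3796 higher and 831 to 3256 lower, with 932 to 3484 having shLuc between and 15 to 455 opposite. Of 162 genes named by rule, 120 stayed called whichever library was left out, counting the fits that tested them, and 0 changed direction.

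Libraries with the same replicate number did not deviate together (correlation across genes of the replicate differences 0.000266 between the knockdowns, 0.0418 and -0.0488 with shLuc), so the number was not used to pair libraries. With the replicate block 4537 genes were called, 2372 higher and 2165 lower. The median log2 difference of 9 of 41 lists changed sign in some setting: stroma, basal, neuroendocrine, mesenchymal, caveolae, YAP and TAZ, interferon, synthetase and ribosome assembly genes. With 2 libraries a group and 20828900 to 27773294 reads, small differences and genes with few reads are limited most.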

Other observations

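Some gene families, a few of whose members are also on the lists above, had calls between the knockdowns. They were chosen after their values were seen and are given as counts beside the 13.5% of all genes called higher and 12.6% called lower, with no test. All 4 ID genes, which encode inhibitors of basic helix-loop-helix transcription factors, rose in shIMPDH2 relative to shIMPA1. ID1 stood at 9021 and 8044 in shLuc, at 2563 and 1144 in shIMPA1 and at 9504 and 11263 in shIMPDH2, and the log2 differences between the knockdowns were 2.59 for ID1, 1.45 for ID2, 1.80 for ID3 and 1.65 for ID4 (limma adjusted p = 0.000119, 0.000228, 0.000247 and 0.000222). Both shIMPA1 libraries of ID1 lay below the 4 other libraries.

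Of 31 tested HOX genes, which pattern the body axis, 15 fell and 1, HOXB13, rose, with a median log2 difference of -0.61. Falls numbered 8 and 9 without shIMPDH2 replicate 1 and replicate 2, and rises 2 without shIMPA1 replicate 1. Beyond HOXD8 and HOXD9, HOXA11 stood at 34.2 and 47.3 in shLuc, at 127 and 100.1 in shIMPA1 and at 24.3 and 15.7 in shIMPDH2 (log2 difference -2.47), and HOXA9 at 194 and 215 in shLuc, at 620.2 and 532 in shIMPA1 and at 174 and 155 in shIMPDH2 (-1.80). The HOXA9 transcript was thus high in shIMPA1, with shLuc close to shIMPDH2. Of 82 tested voltage-gated and related cation channel subunits and regulators, 27 fell and 7 rose (median -0.39), the potassium channel subunit KCNG1 with -3.48. Rises among them numbered 12 without shIMPA1 replicate 1 and 4 without either shIMPDH2 library. Of 32 collagen chains, 14 fell and 2 rose (median -0.47), among them COL6A2 at 72.9 and 69.1 in shLuc, at 212 and 196 in shIMPA1 and at 35.8 and 24.7 in shIMPDH2 (-2.73) and COL16A1 with -3.05. Collagen falls numbered 9 without shIMPDH2 replicate 1 and 6 without replicate 2, with 0 rises in both, rises 1 without either shLuc library, and the median was -0.24 with 5 rises without shIMPA1 replicate 1. Of 8 S100 genes, 5 fell and 0 rose, S100P with -2.98, and 2 fell without either shIMPDH2 library or 3 without either shLuc library, and 1 rose without shIMPA1 replicate 2. Of 35 kinesin genes, 10 rose and 4 fell, with 17 rises without shIMPA1 replicate 1, 5 rises without either shIMPDH2 library, and 2 falls without any 1 library of shIMPDH2 or shLuc. Of 59 protocadherin genes, 12 rose and 6 fell, but 0 rose and 3 fell without shIMPDH2 replicate 1, 2 rose and 1 fell without shIMPDH2 replicate 2, and 7 rose without shLuc replicate 1.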
